A study of Homo sapiens with 4 samples.

Results

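The OAS and IFIT families are antiviral effectors induced by interferon, and 8 of their genes were examined here: OAS1, OAS2, OAS3 and OASL of the first family, and IFIT1, IFIT2, IFIT3 and IFIT5 of the second. They were chosen by name from the listed genes, with the lower values of interferon-stimulated genes after KIAA1429 knockdown already known, so their differences between the groups are given as a description without a test. All 8 were listed, as 8 of 13036 genes and 17 of 38510 transcripts. The samples were HCCLM3, an established human hepatoma cell line, carrying a lentiviral control hairpin (shCtrl, 2 libraries) or a lentiviral hairpin against KIAA1429 (shKIAA1429, 2 libraries). Both groups were therefore infected with a lentivirus, and the knockdown rests on a single hairpin sequence. KIAA1429, listed as VIRMA, belongs to the enzyme complex placing N6-methyladenosine (m6A) marks on transcripts. Its summed value was 9.37 and 14.1 FPKM in the shCtrl replicates and 6.90 and 8.52 FPKM in the shKIAA1429 replicates. The groups did not overlap, but their nearest values were closer than the replicates within either. FPKM is the number of fragments scaled to transcript length and to the library total, so that levels can be compared between genes.

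Interferons are secreted when a cell recognises viral nucleic acid. Their receptors activate the kinases JAK1 and TYK2, and a complex of transcription factors that includes IRF9 then enters the nucleus and binds the interferon-stimulated response element in the promoters of responding genes. OAS1, OAS2 and OAS3 are enzymes that bind double-stranded RNA and make short oligoadenylates, which act as messengers in the antiviral response. OASL is a relative without that enzymatic activity that assists the RNA sensor RIG-I. IFIT proteins are built of tetratricopeptide repeats; IFIT1 binds viral RNA whose cap lacks ribose methylation, IFIT2 and IFIT3 associate with it, and IFIT5 binds RNA with a bare triphosphate end.

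Promoters are shown first, because all of these genes are known to respond to the same element. RefSeq windows of 300 bases, from 250 before to 50 after a start of transcription (GRCh38.p14), were held for 5 of the 8 genes as 6 windows, with 2 starts for IFIT3; OAS2, OASL and IFIT2 had no entry. The element was searched on both strands as GAAA followed, after any 2 bases, by GAAA, overlapping matches included. It was found in 5 of the 6 windows, in 4 of the 5 genes, against 3.57% of all 35116 windows of the table. Each of the 5 held at least 2 matches, against 0.259% of all windows. The stretches below, all on the plus strand, carry the matches in capitals. In the IFIT genes the match lies on the opposite strand and reads TTTC, any 2 bases, TTTC.
IFIT1, chr10:89392492-89392544: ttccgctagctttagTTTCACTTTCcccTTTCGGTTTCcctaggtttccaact
IFIT3 upstream start, chr10:89327826-89327899: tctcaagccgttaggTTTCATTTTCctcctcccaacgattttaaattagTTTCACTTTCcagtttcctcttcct
IFIT3 downstream start, chr10:89332420-89332502: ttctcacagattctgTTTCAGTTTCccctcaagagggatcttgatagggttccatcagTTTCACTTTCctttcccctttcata
IFIT5, chr10:89414508-89414588: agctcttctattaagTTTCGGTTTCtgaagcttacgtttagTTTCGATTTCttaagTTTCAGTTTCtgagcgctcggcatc
OAS3, chr12:112938316-112938355: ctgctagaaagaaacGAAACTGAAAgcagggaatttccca
OAS3, chr12:112938447-112938486: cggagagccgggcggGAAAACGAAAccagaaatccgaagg

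IFIT1 held its 2 matches at -116 to -107 and -103 to -94 from the start, only 3 bases apart. IFIT5 held 3, at -45 to -36, -19 to -10 and -4 to 5, so that the last spanned the start. The OAS1 window held no match in these letters; it held the gamma-activated site (TTC, any 3 bases, GAA), which was found in 1 of the 6 windows and in 7.66% of all windows. TATAAA, the letters of the TATA box, was found on either strand in 1 of the 6 windows and in 11.5% of all. That match, in the window of the upstream IFIT3 start, lay on the strand opposite to the gene. Matched letter by letter to GRCh37, the build of the expression files, each window occurred once. Its start lay between 14 and 185 bases from the start of a listed transcript, the 185 being that of OAS1. In GRCh37 the OAS1 window began at 113344517 and OAS1-201 at 113344582, so little sequence before that listed start was searched. The motif positions are drawn in the map of motif matches.

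**Figure D1:**
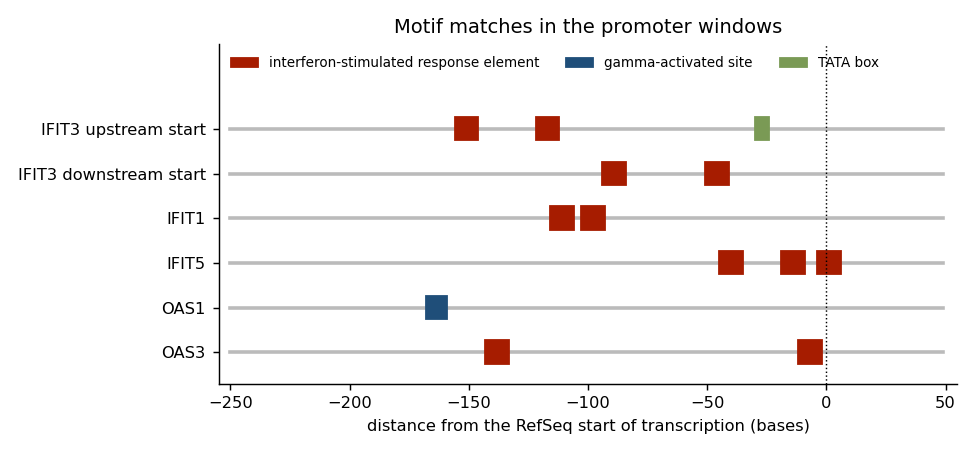
Motif matches in the 6 RefSeq promoter windows of OAS and IFIT genes. The horizontal axis is the distance in bases from the start of transcription, each grey line is a window, and boxes are matches on either strand. Matches of the interferon-stimulated response element number 2 or 3 in all windows except that of OAS1.

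The summed FPKM of all transcripts was between 370253.5 and 390224.4 per library, and 11657 genes with at least 1 FPKM in at least 2 libraries were tested, all 8 members among them. Mitochondrial transcripts took between 9.29% and 10.6%, highest in shKIAA1429 replicate 1. Read depth is unknown, and the counting error of these values could not be estimated. Of the liver markers ALB, AFP, APOA1, TTR and SERPINA1, 1 of the 5 (SERPINA1) was listed. Of 4 epithelial markers 2 were listed, the keratins KRT8 and KRT18, together at 2089 to 2206 FPKM, while EPCAM and CDH1 were not. Of the leukocyte markers CD68 and CD14 were listed, at 46.7 to 56.3 FPKM in sum, while PTPRC, CD3E and LYZ were not among the listed genes; of 5 fibroblast markers 4 were listed, at 64.8 to 74.0 FPKM; and of 4 endothelial markers 0 were listed. None of these sums was lower in both shKIAA1429 libraries than in both shCtrl libraries. No label says whether replicates were separate cultures, so the spread between them may be technical.

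All 8 genes were lower on average in shKIAA1429 than in shCtrl, where 51.9% of all genes tested were lower. Their summed level was 150.2 and 100.1 FPKM in the shCtrl replicates and 81.2 and 63.5 FPKM in the shKIAA1429 replicates. The shKIAA1429 mean was 57.8% of the shCtrl mean, at 72.4 ± 12.5 against 125.1 ± 35.4 FPKM (SD, n = 2 each). By family it was 59.0% for the OAS and 56.8% for the IFIT genes. In bulk RNA, fewer cells expressing a gene and less of its RNA per cell cannot be told apart. For 5 of the 8, OAS1, OAS2, OAS3, IFIT1 and IFIT5, the higher shKIAA1429 value was under the lower shCtrl value, an arrangement found in 16.7% of all genes. For OASL, IFIT2 and IFIT3 the groups overlapped. Since the genes were chosen with this contrast known, nothing is read from these counts.

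**Figure D2:**
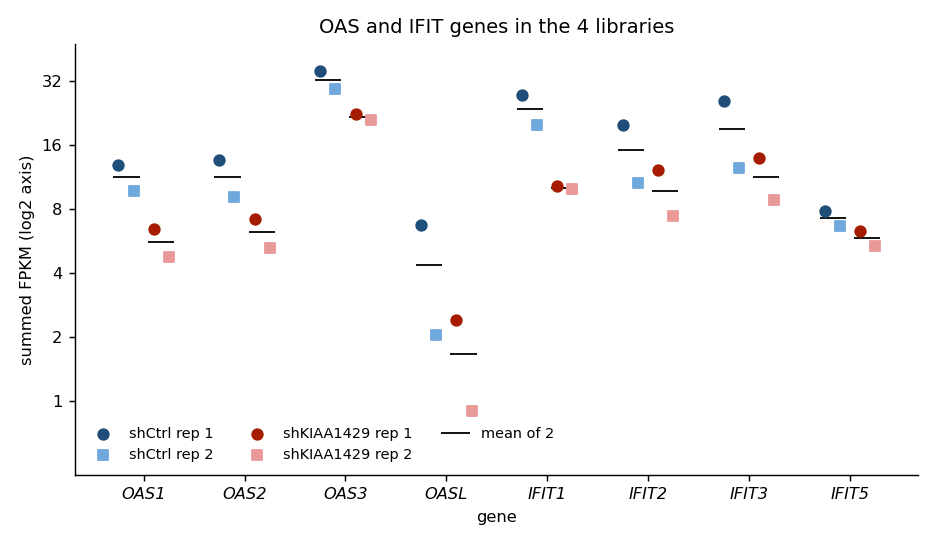
Summed FPKM of the 8 genes in each library, on a log2 axis, with shCtrl in blue, shKIAA1429 in red, circles for replicate 1, squares for replicate 2 and black bars for the mean of 2. For OAS1, OAS2, OAS3, IFIT1 and IFIT5 both red points lie below both blue ones, and the widest spread is that of OASL.

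The 3 synthetase genes lie next to each other on the plus strand of chromosome 12, between 113344582 and 113449528 in GRCh37, in the order OAS1, OAS3, OAS2 with gaps of 18.4 and 5.15 kb. OAS1 (ENSG00000089127.12_3) was at 12.9 and 9.71 FPKM for shCtrl and 6.45 and 4.79 FPKM for shKIAA1429. The latter mean was 49.7% of the former, and the gap between the nearest values of the groups was slightly wider than the difference between the shCtrl replicates. OAS2 (ENSG00000111335.12_2) was at 13.7 and 9.09 FPKM against 7.18 and 5.27 FPKM. OAS3 (ENSG00000111331.12_2), the longest enzyme and the most sensitive to low amounts of double-stranded RNA, was at 35.7 and 29.5 FPKM against 22.4 and 21.0 FPKM. OAS3 was the most abundant of the 8 genes in all 4 libraries, and its shKIAA1429 replicates differed little, with a mean of 21.7 ± 0.986 FPKM (SD, n = 2).

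OASL (ENSG00000135114.12_2) lies apart on the same chromosome, on the minus strand from 121456914 to 121477045. It was the least abundant of the 8 by its mean in either group, at 6.74 and 2.06 FPKM for shCtrl and 2.42 and 0.896 FPKM for shKIAA1429. The shCtrl replicates differed 3.28-fold, more than for any other of the 8 genes, and shCtrl replicate 2 was below shKIAA1429 replicate 1. Its mean of 1.66 ± 1.08 FPKM against 4.40 ± 3.31 FPKM (SD, n = 2 each) was therefore within the spread between replicates.

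The IFIT genes lie together within 91043451 to 91180758 of chromosome 10 (GRCh37, plus strand), in the order IFIT2, IFIT3, IFIT1, IFIT5. IFIT1 (ENSG00000185745.9_2) was at 27.6 and 19.9 FPKM for shCtrl and 10.3 and 9.95 FPKM for shKIAA1429. The shKIAA1429 replicates were nearly equal, and their mean was 42.5% of the shCtrl mean, well clear of both shCtrl values. IFIT3 (ENSG00000119917.13_2) was at 25.8 and 12.5 FPKM against 14.0 and 8.87 FPKM. IFIT2 (ENSG00000119922.9_3) was at 19.9 and 10.6 FPKM against 12.2 and 7.40 FPKM. For both, shCtrl replicate 1 stood far above the other 3 libraries, and shKIAA1429 replicate 1 exceeded shCtrl replicate 2. IFIT5 (ENSG00000152778.8_2) varied least, at 7.85 and 6.71 FPKM against 6.35 and 5.37 FPKM; its groups did not overlap, but the nearest values of the groups were closer than the replicates within either.

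Ordered by level in shCtrl, OAS3 stood first and did not overlap IFIT1. The ranges of IFIT1, IFIT3, IFIT2 and OAS2 each overlapped that of the next gene in the order given, the last of them that of OAS1. Within either shCtrl library the order was nevertheless IFIT1, IFIT3, IFIT2 and then OAS2, while OAS2 and OAS1 changed places between the libraries. OAS1 lay above IFIT5 in both, and IFIT5 overlapped OASL. In shKIAA1429, OAS3 was again first and OASL last, both clear of their neighbours. IFIT3, IFIT1 and IFIT2 overlapped in sequence, all above OAS2, and OAS2, IFIT5 and OAS1 overlapped likewise. By its mean, IFIT1 followed OAS3 in shCtrl and IFIT3 in shKIAA1429.

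The log2 fold change was taken as shKIAA1429 minus shCtrl after adding 1 FPKM, a scale that shrinks the differences of low genes. Over the 8 genes its median was -0.71, and over all genes tested -0.01. It was -1.14 (SE 0.20) for IFIT1, -0.93 (SE 0.53) for OASL, -0.89 (SE 0.22) for OAS1 and -0.76 (SE 0.25) for OAS2. It was -0.65 (SE 0.39) for IFIT3, -0.57 (SE 0.37) for IFIT2, -0.56 (SE 0.16) for OAS3 and -0.27 (SE 0.17) for IFIT5. Only IFIT1 was lower by more than 1, as were 0.575% of all genes. From 0.377% of genes tested, for IFIT1, to 11.6%, for IFIT5, had a lower fold change than the member itself. Both thresholds of the study's methods, 0.05 for the adjusted p-value and 1 for the absolute log2 fold change, were passed by 0 of the 8 genes and by 0% of the 11657 genes in limma. VIRMA passed neither threshold, with a log2 fold change of -0.53 (SE 0.24, limma adjusted p-value 0.917). Unadjusted, 656 genes had p under 0.05 (309 lower, 347 higher). The median depended on shCtrl replicate 1: it was -0.35 without that library, and the fold change was then -0.15 for IFIT3, -0.14 for IFIT2 and -0.26 for OASL, while IFIT1 was at -0.92 and OAS1 at -0.71.

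**Figure D3:**
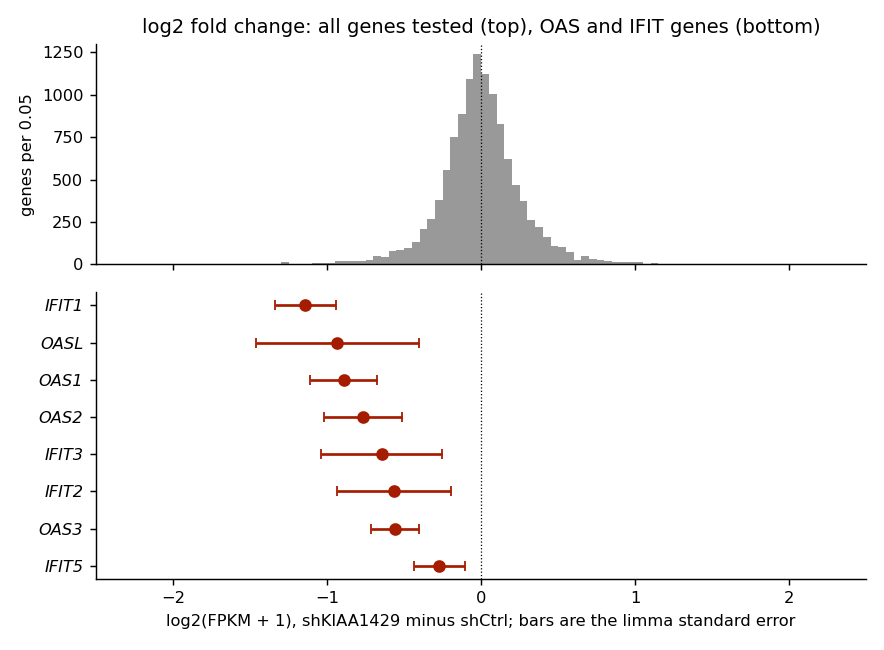
Log2 fold change, shKIAA1429 minus shCtrl on log2(FPKM + 1), of all genes tested as a histogram (top, 2 genes beyond the axis not drawn) and of the 8 OAS and IFIT genes with the limma standard error (bottom). The members range from -1.14 for IFIT1 to -0.27 for IFIT5, all on the lower side of the histogram's centre.

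Within each group the library numbered 1 was above the library numbered 2 for all 8 genes, an arrangement found in 31.6% of all genes tested. The ratio of replicate 1 to replicate 2 ran from 1.17 for IFIT5 to 3.28 for OASL in shCtrl, and from 1.03 for IFIT1 to 2.70 for OASL in shKIAA1429. Centred on each gene's own mean of log2(FPKM + 1), the average of the 8 was 0.67 and 0.05 in shCtrl replicates 1 and 2, against -0.16 and -0.56 in shKIAA1429 replicates 1 and 2. The middle libraries thus lay close together, and the outer libraries far apart. OAS1, OAS2, OAS3, IFIT1 and IFIT5 had shCtrl replicate 2 above shKIAA1429 replicate 1, at 0.35 against -0.55 for IFIT1 and 0.04 against -0.03 for IFIT5. IFIT2, IFIT3 and OASL had them in the opposite order, at -0.14 against 0.04 for IFIT2. Of these patterns IFIT5 had the smallest amplitude, from 0.24 to -0.24.

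Other genes were ranked by the root mean square distance of their centred values from this average, over the 4 libraries and among 7469 genes with a mean of at least 5 FPKM. The nearest were APBB1 (distance 0.062), LATS2 (0.063), WNK4 (0.067), IFT27 (0.077) and PPP2R2A (0.078). Among the members themselves the distance ran from 0.038 for OAS2 to 0.317 for OASL. LATS2, a kinase of the Hippo pathway, was at 43.7 and 28.9 FPKM for shCtrl and 26.0 and 20.4 FPKM for shKIAA1429. APBB1, an adaptor that binds the amyloid precursor protein, was at 20.7 and 12.5 FPKM against 11.3 and 9.0 FPKM. With 4 libraries a distance describes these values only, and it was not tested.

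**Figure D4:**
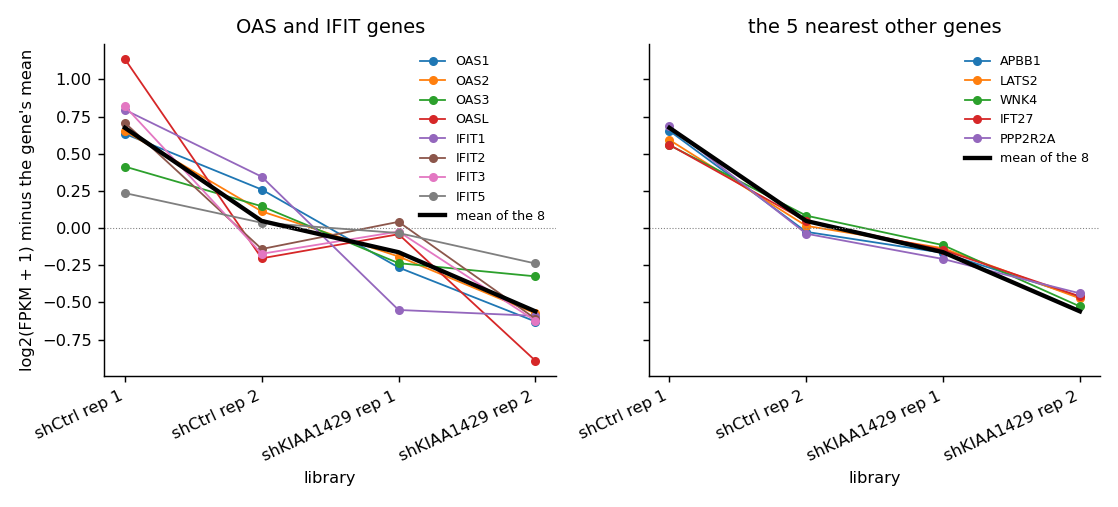
Log2(FPKM + 1) minus the gene's own mean in each of the 4 libraries, for the 8 OAS and IFIT genes (left) and the 5 nearest other genes (right), with the average of the 8 in black. The lines only join values of a gene. shCtrl replicate 1 is the highest library and shKIAA1429 replicate 2 the lowest for every gene drawn.

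Transcripts were then examined, since 5 of the 8 genes had more than 1 listed. All 17 were annotated as protein coding. On the log2(FPKM + 1) scale the mean of 16 was lower in shKIAA1429 and that of 1, OAS3-205, was higher, where 49.3% of all listed transcripts were lower; for OASL-202 the means were nearly equal. For 9 of the 17 the groups were apart with shKIAA1429 below, as for 16.6% of all listed transcripts, and for 0 with shKIAA1429 above. Among the 9, OAS2-201 and OAS3-204 exceeded 0.5 FPKM only in shCtrl, so they were listed through that group alone. OAS1, IFIT1 and IFIT5 each had a single listed transcript, with 6, 2 and 2 exons in the GENCODE 44 annotation lifted to GRCh37. In that annotation 16 of the 17 were found, OAS3-204 being the exception.

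OAS3-201, with 16 exons and 6599 exonic bases, made up 89.9% and 87.5% of OAS3 in shCtrl and 74.9% and 85.4% in shKIAA1429. The lowest of these shares came from shKIAA1429 replicate 1, where the short OAS3-205 was at 4.64 FPKM, against 1.74 and 1.67 FPKM in shCtrl and 0.921 FPKM in shKIAA1429 replicate 2. The higher mean of OAS3-205 thus came from 1 library. By itself OAS3-201 was at 32.1 and 25.8 FPKM against 16.8 and 17.9 FPKM, with the nearest values of the groups further apart than in the sum. The short OAS3-207 was at 1.3 and 1.46 FPKM against 0.645 and 1.90 FPKM, and OAS3-204 at 0.554 and 0.555 FPKM against 0.332 and 0.241 FPKM. OAS3-204 was thus the least abundant of the 4, close to the lowest level that was listed. It exceeded 0.5 FPKM only in shCtrl, so nothing is read from its lack of overlap.

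OAS2 was carried mainly by OAS2-202, at 10.8 and 4.55 FPKM for shCtrl and 4.61 and 3.33 FPKM for shKIAA1429, so that its groups overlapped although those of the sum did not. OAS2-201, which encodes the longer protein form with 2157 coding bases, was at 0.227 and 2.26 FPKM for shCtrl and 0.0126 and 0.0025 FPKM for shKIAA1429. It took 24.8% of OAS2 in shCtrl replicate 2 and at most 1.66% in the other libraries. Only 87 exonic bases of OAS2-201 belonged to no other listed OAS2 transcript. The short OAS2-203, with 2 exons, varied least, at 2.69 and 2.29 FPKM against 2.56 and 1.94 FPKM.

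OASL-201, the full-length form, was at 3.99 and 1.66 FPKM for shCtrl and 1.01 and 0.588 FPKM for shKIAA1429, with no overlap between the groups. OASL-204 was at 2.15 FPKM in shCtrl replicate 1 and at 0.715 FPKM in shKIAA1429 replicate 1, and was listed at 0 in both replicates 2. OASL-202 was at 0.602 and 0.396 FPKM against 0.693 and 0.308 FPKM, with overlap. No exonic base of OASL-204 or OASL-202 was outside the other listed OASL transcripts. The groups thus overlapped in the summed OASL but not in OASL-201. How reads were split among these forms is not known, and the source of the overlap was not tested.

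IFIT2 and IFIT3 each had 2 listed transcripts that share a coding exon and differ upstream of it. Coding parts had the same length within each pair, 1416 bases in IFIT2 and 1470 in IFIT3. The IFIT2 pair also differed at the downstream end, at 91069033 for IFIT2-201 and 91068657 for IFIT2-203. IFIT3-202 starts at 91087651, near the upstream promoter printed above, and IFIT3-201 at 91092241, near the downstream promoter. IFIT3-202 was at 16.5 and 6.75 FPKM for shCtrl and 6.74 and 5.58 FPKM for shKIAA1429, with both shCtrl values above both shKIAA1429 values by a narrow margin. IFIT3-201 was at 9.33 and 5.73 FPKM against 7.22 and 3.28 FPKM, and its groups overlapped. IFIT2-203, which starts upstream at 91043451, was at 7.98 and 6.36 FPKM against 4.79 and 4.29 FPKM, without overlap. IFIT2-201 was at 12.0 and 4.27 FPKM against 7.40 and 3.11 FPKM, with overlap. Exonic bases private to one of the pair numbered 82 for IFIT3-202, 147 for IFIT3-201, 371 for IFIT2-201 and 681 for IFIT2-203, so their split rests on short stretches.

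**Figure D5:**
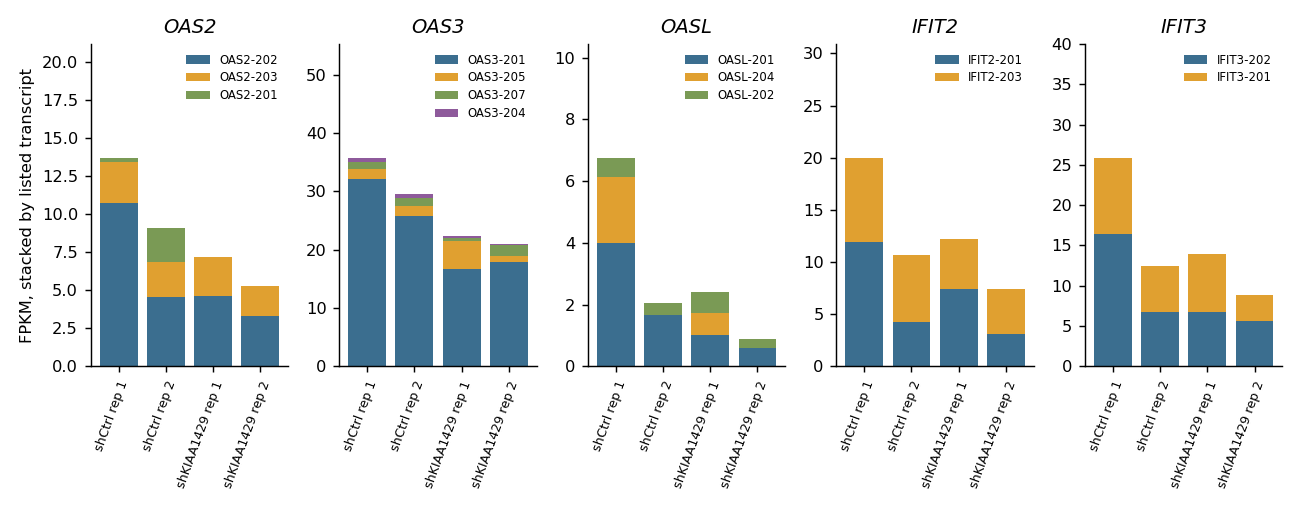
FPKM of the listed transcripts of OAS2, OAS3, OASL, IFIT2 and IFIT3, stacked in each library, on separate linear axes from 0. OAS2-201 is a visible band in shCtrl replicate 2 and thin or absent elsewhere, OAS3-205 is tallest in shKIAA1429 replicate 1, and OASL-204 is at 0 in both replicates 2.

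The m6A complex acts mainly on a consensus around GGAC, and its density in the annotated transcripts was counted as a description. The median over 37441 matched transcripts was 3.98 GGAC per kb. OAS1-201 held 6.74, OAS3-201 6.21 and OASL-201 6.73 per kb, each above the upper quartile of 5.87. OAS2-202 held 2.16, IFIT3-202 2.09 and IFIT5-201 2.48 per kb, each below the lower quartile of 2.58, and IFIT1-201 (3.02) and IFIT2-201 (2.95) lay between. The members thus had no common density, although every listed IFIT and OAS2 transcript lay below the median. Methylation of the members was not analysed here.

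The partners of these families were mixed in direction. PDE12, which degrades oligoadenylates, had a log2 fold change of -0.24 (SE 0.19) and ABCE1, a protein that recycles ribosomes, of -0.07 (SE 0.20). Of 7 translation initiation and cap methylation genes that IFIT proteins act on or compete with, 4 were lower and 3 higher, with a median of -0.03. EIF3E and EIF3C, subunits of the initiation factor bound by IFIT proteins, had fold changes of 0.26 (SE 0.20) and 0.14 (SE 0.13); EIF3C has a near-identical copy and is uncertain. By limma 0 of these genes passed both thresholds.

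Of 9 interferon genes 0 were listed. Of 15 genes of interferon signalling tested, 0 passed in either direction, as for 0% of all genes tested. Of the 15, 8 were lower and 7 higher, where 51.9% of all genes were lower, and the median was -0.07. IRF1, a transcription factor induced by interferon, was higher on average in shKIAA1429, at 33.6 and 24.0 FPKM against 22.0 and 16.9 FPKM in shCtrl, with a fold change of 0.53 (SE 0.23) and an adjusted p-value of 0.901 in limma. Its groups did not overlap. Of the 15, 3 had groups apart with shKIAA1429 below, against 16.7% of all genes tested, and IRF1 and some others with shKIAA1429 above.

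Among 29 other interferon-stimulated effectors tested, of 35 in the list, 26 were lower and 3 higher, where 51.9% of all genes tested were lower. The median was -0.33, and 0 passed both thresholds in either direction, as for 0% of all genes tested. The groups were apart, with shKIAA1429 below, for 10 of the 29, against 16.7% of all genes tested. In 23 of the 29 the library numbered 1 exceeded that numbered 2 in both groups, against 31.6% of all genes tested. The list was chosen with earlier results of these data known, so nothing is read from these counts. ISG15, a ubiquitin-like protein attached to other proteins, was at 53.2 and 36.0 FPKM against 23.6 and 18.7 FPKM, a log2 fold change of -1.02 (SE 0.24, limma adjusted p-value 0.616). IFI6, a small antiviral membrane protein, was at 95.5 and 68.7 FPKM against 56.0 and 25.8 FPKM, a fold change of -1.07 (SE 0.40, limma adjusted p-value 0.884). Of 6 housekeeping genes 2 were lower and 4 higher, with a median of 0.04.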

How the data were processed

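RNA was sequenced from 2 shCtrl and 2 shKIAA1429 libraries of HCCLM3, grouped by their titles. By their methods the authors used TopHat, HTSeq and DESeq, and the submitters' processing notes name Bowtie2 2.1.0; the deposited values are FPKM per transcript, per the file headers, and the tool behind them is not given in the sources used here. All listed transcripts exceeded 0.5 FPKM in some library. Positions are GRCh37.

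FPKM were summed per gene. Genes with at least 1 FPKM in at least 2 libraries entered limma (3.58.1, R 4.3.3; eBayes with trend, two-sided) as log2(FPKM + 1), Benjamini-Hochberg adjusted over all genes; no count test was possible. The fit was tested on simulated normal values whose spread was drawn from the fit itself. That check does not show how well FPKM of 2 libraries per group meet its assumptions. The members and gene lists were chosen with earlier results of these data known. From each list were named genes past both thresholds, or else the 2 with the largest absolute fold change at a mean of at least 5 FPKM; some of these are not reported here. How the quantification treated strand and multiply mapped reads is not stated. Reads shared between OAS or IFIT paralogs, or with genes on the opposite strand (LIPA spans IFIT2, IFIT3 and IFIT1), are uncertain. LIPA had a log2 fold change of -0.05. Alternatives were another pseudocount, filters, upper quartile scaling, the replicate block, a robust variance, single transcripts and leaving out each library. Motifs were counted in RefSeq promoters and GENCODE 44 transcripts. Figures used matplotlib 3.10.9.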

Additional observations from a re-analysis of the deposited data

How the results depend on the processing

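All 8 genes were lower in shKIAA1429 in each fit run. Of 79 single-gene values 79 were below 0, over 10 alternatives, OASL being removed by a filter of 1 FPKM in every library. The filters and the replicate block cannot change a gene's own fold change here, so their values repeat the main fit. Since the genes were chosen with this contrast known, nothing is read from this count. Their median log2 fold change was -0.69 with upper quartile scaling, -0.77 with a pseudocount of 0.1 and -0.71 with the most abundant transcript in place of the sum. Leaving out each library, with the lone sample of a group assumed to vary like the other group, gave medians from -1.06 to -0.35, the extremes being without shCtrl replicate 2 and without shCtrl replicate 1. Groups did not overlap for 5 to 8 of the 8 genes, with 8 without shCtrl replicate 2 or without shKIAA1429 replicate 1 and 5 without either remaining library. With fewer libraries to separate, the share over all genes tested also rose, to 32.3% and 30.6% in the former and to 35% and 38.3% without shCtrl replicate 1 and shKIAA1429 replicate 2. By gene the ranges were -1.37 to -0.92 for IFIT1, -0.99 to -0.14 for IFIT2, -1.14 to -0.15 for IFIT3, -0.37 to -0.17 for IFIT5, -1.08 to -0.71 for OAS1, -1.03 to -0.49 for OAS2, -0.69 to -0.43 for OAS3 and -1.60 to -0.26 for OASL.

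Among all genes tested, 0 to 1 passed both thresholds when a library was left out, the 1 being HIST4H4 without shCtrl replicate 1, and 0 in the other alternatives. No label says that a replicate number marks a shared batch. With the replicate block 0 genes passed, and 1269 had an unadjusted p under 0.05 in limma in place of 656. The median of the 8 was -0.71 as before, which the block cannot change when each group holds both replicate numbers. Deviations of same-numbered libraries from their group means correlated at 0.32 over genes, in 2 pairs only. Read depth is unknown, so precision rests on 2 libraries per group.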
